A study of Bos taurus with 12 samples.

Results

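The miR-130, miR-301 and miR-454 family holds 5 mature miRNAs of the bovine mammary small RNA table, namely bta-miR-130a, bta-miR-130b, bta-miR-301a, bta-miR-301b and bta-miR-454, of 388 mature miRNAs in all. The members were chosen by name, as every miR-130, miR-301 and miR-454 entry with any letter or arm. Where a mature miRNA is listed under several precursors, the entry with the highest mean over the 12 libraries was kept. Each of the 5 members has 1 entry, so that mean changed nothing.

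Small RNA was sequenced from mammary biopsies of 12 healthy multiparous Chinese Holstein cows, a dairy breed, with 1 library per cow. HP (high milk protein percentage, in lactation) and LP (low milk protein percentage, in lactation) were sampled at peak lactation. HD (high milk protein percentage, non-lactating) and LD (low milk protein percentage, non-lactating) came from other cows in the dry period before the expected calving. Each group holds 3 libraries. The labels name no treatment in any group, and the phenotype refers to milk protein recorded over the preceding lactation. The biopsies were bulk tissue, so fewer cells of a type and less of a miRNA per cell cannot be told apart.

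MicroRNAs guide a silencing complex to messenger RNAs, and the bases near their 5′ end, the seed, do most of the target recognition. The members of this family share a seed and therefore many predicted targets. They are known as regulators of PPARG, the master transcription factor of fat cells, and miR-130a is known from work on blood vessel growth. The genes lie in clusters. In the RefSeq annotation of ARS-UCD2.0, MIR130B and MIR301B are next to each other on chromosome 17 with 0 genes between them. MIR454 and MIR301A lie on chromosome 19, both within the bounds of SKA2, a gene for a protein of the spindle and kinetochore. MIR130A stands on chromosome 15, with 0 other miRNAs of the table within 10 kb. The table was made on ARS-UCD1.2, so this annotation was used for names and neighbours only.

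The deposited values are reads scaled to the same total in each library (RPM), which the study calls TPM. They are not scaled by length, and mature miRNAs are close to one another in length. The smallest steps between values correspond to 6026620 to 13373812 reads in the lactation libraries and 11047232 to 23577191 in the non-lactating libraries. The reads given for single values are inferred from these steps, since the table holds no counts. A count of 3 such reads is worth between 0.127 and 0.498 TPM. Normalized TPM is TPM divided by a size factor, the median ratio of a library to the average library. The factors ran from 0.764 in LD replicate 2 to 1.14 in LP replicate 2, apart from HD replicate 1 and LD replicate 1, where they were close to 1.5. The deposited TPM of every member in those libraries is higher than its normalized TPM by that factor.

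Family members covered a wide range of levels. Over all 12 libraries the mean was 178 ± 66.7 TPM (SD, n = 12) for bta-miR-301a and 76.8 ± 63.4 TPM for bta-miR-130b. It was 15.4 ± 7.17 TPM for bta-miR-454, 8.67 ± 7.32 TPM for bta-miR-301b and 2.24 ± 0.81 TPM for bta-miR-130a. These means placed the members at ranks 118, 140, 213, 241 and 307 of the 388 miRNAs by mean TPM. bta-miR-301a was above bta-miR-130b, and bta-miR-130b above bta-miR-454, in every library. bta-miR-454 was above bta-miR-301b in every library except LD replicate 3, and bta-miR-301b was above bta-miR-130a in every library except HP replicate 2. In the lactation libraries the ranges of those last 2 members overlapped, at 1.63 to 4.86 TPM for bta-miR-301b and 1.14 to 2.67 TPM for bta-miR-130a.

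Lactation and the non-lactating period were compared over all 12 libraries, with high and low protein cows balanced. All 5 members had a lower mean in lactation, and 4 of them, bta-miR-301b, bta-miR-130b, bta-miR-454 and bta-miR-301a, passed an adjusted p of 0.05 in limma with Benjamini-Hochberg adjustment over the 388 miRNAs. Over the whole table, 22.2% of miRNAs were called lower in lactation by this rule. The median log2 fold change of the 5 members was -0.67, beside -0.01 over all 388 miRNAs. Because 1 was added to normalized TPM before taking log2, the fitted fold changes of low miRNAs come out smaller than the ratios of their means.

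bta-miR-301b, encoded beside bta-miR-130b, differed most between the stages. In HP it stood at 1.83, 1.63 and 2.44 TPM in replicates 1 to 3, and in LP at 4.86, 3.29 and 2.14 TPM. In HD it stood at 16.11, 12.07 and 11.79 TPM, and in LD at 23.94, 7.71 and 16.27 TPM. Every non-lactating library was above every lactation library, with LP replicate 1 the highest in lactation and LD replicate 2 the lowest outside it. By the steps in the values, the lactation levels correspond to 11 to 65 reads per library and the non-lactating levels to 166 to 343 reads. The lowest inferred count, 11 reads in HP replicate 1, has an exact 95% Poisson interval of 0.911 to 3.27 TPM, which covers counting error only. The mean normalized TPM was 2.84 ± 1.62 (SD, n = 6) in lactation and 13.6 ± 4.24 (SD, n = 6) in the non-lactating period, 4.78-fold higher in the latter. The log2 fold change, lactation over non-lactating, was -1.96 (SE 0.24, 95% interval -2.49 to -1.44, adjusted p = 7.33e-05). It was the 10th most negative of the 388 miRNAs. The two-sided exact permutation test of the 6 against 6 normalized values gave p = 0.00216, the smallest this design can give.

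bta-miR-130b, the cluster partner of bta-miR-301b, came next. It was measured at 28.04, 31.08 and 49.64 TPM in HP and at 35.82, 43.00 and 32.29 TPM in LP. The non-lactating libraries spread far more, with 112.06, 161.99 and 81.18 TPM in HD and 232.36, 38.66 and 75.80 TPM in LD. As deposited, LD replicate 2 fell within the lactation range, and after normalization it was at 50.6 TPM, above the highest lactation library at 45.1. The mean normalized TPM was 37.2 ± 6.52 (SD, n = 6) in lactation and 102 ± 40.7 (SD, n = 6) in the non-lactating period, a 2.74-fold difference. The log2 fold change was -1.35 (SE 0.28, 95% interval -1.95 to -0.74, adjusted p = 0.00216). The exact permutation test, two-sided, gave p = 0.00216 on normalized TPM and p = 0.00649 on TPM as deposited.

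**Figure D1:**
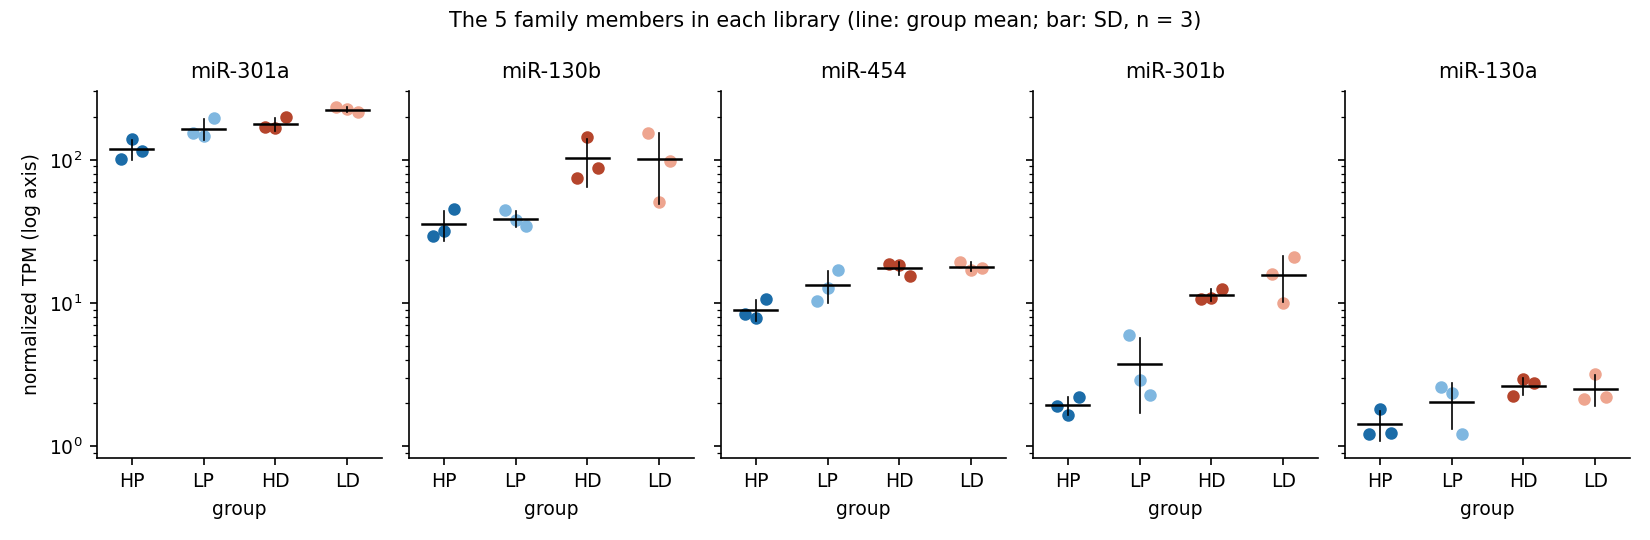
Normalized TPM (log axis) of the 5 family members in each library, by group, with 1 point per library, a line at the group mean and a bar for the SD (n = 3). The 6 lactation libraries (HP, LP) of bta-miR-301b and of bta-miR-130b lie below all 6 non-lactating libraries (HD, LD), while the stages overlap for the other members.

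Both members encoded within SKA2 were lower in lactation by a smaller amount. bta-miR-454 stood at 7.96, 7.67 and 11.73 TPM in HP, 8.37, 14.42 and 16.02 TPM in LP, 28.06, 20.65 and 14.46 TPM in HD and 29.11, 13.10 and 13.50 TPM in LD. HP was low throughout, and LP replicates 2 and 3 reached the lower non-lactating libraries. Its log2 fold change was -0.67 (SE 0.20, 95% interval -1.09 to -0.24, adjusted p = 0.0151), with mean normalized TPM of 11.2 ± 3.38 in lactation against 17.8 ± 1.39 outside it (SD, n = 6 each, two-sided exact permutation p = 0.00433). bta-miR-301a stood at 96.73, 136.38 and 126.05 TPM in HP, 123.37, 166.22 and 183.41 TPM in LP, 253.08, 184.77 and 184.28 TPM in HD and 347.73, 172.11 and 165.49 TPM in LD. The stages overlapped, with LP replicate 3 above both LD replicates 2 and 3 as deposited. Its log2 fold change was -0.52 (SE 0.16, 95% interval -0.87 to -0.16, adjusted p = 0.0217), with mean normalized TPM of 142 ± 32.8 and 201 ± 28.3 (SD, n = 6 each, two-sided exact permutation p = 0.0130). Without size factors neither call held, although the log2 fold changes were larger, at -0.77 for bta-miR-454 (adjusted p = 0.0631) and -0.62 for bta-miR-301a (adjusted p = 0.0723). The call of bta-miR-301a was also lost without HP replicate 3, LP replicate 1, LP replicate 2 or HD replicate 3, at adjusted p between 0.0506 and 0.0606.

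bta-miR-130a, encoded alone, did not pass the adjusted threshold. It ran from 1.14 to 2.67 TPM in lactation, on 7 to 30 inferred reads, and from 1.72 to 3.35 TPM in the non-lactating period, on 36 to 72. These ranges overlapped. The log2 fold change was -0.41 (SE 0.18, 95% interval -0.79 to -0.03, adjusted p = 0.0778), and the two-sided exact permutation test on normalized TPM gave p = 0.0303. Of the 5 members, bta-miR-301b and bta-miR-130b had no overlap between the stages on normalized TPM. Over the table, 10.3% of miRNAs lay lower in all 6 lactation libraries than in all 6 non-lactating libraries.

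**Figure D2:**
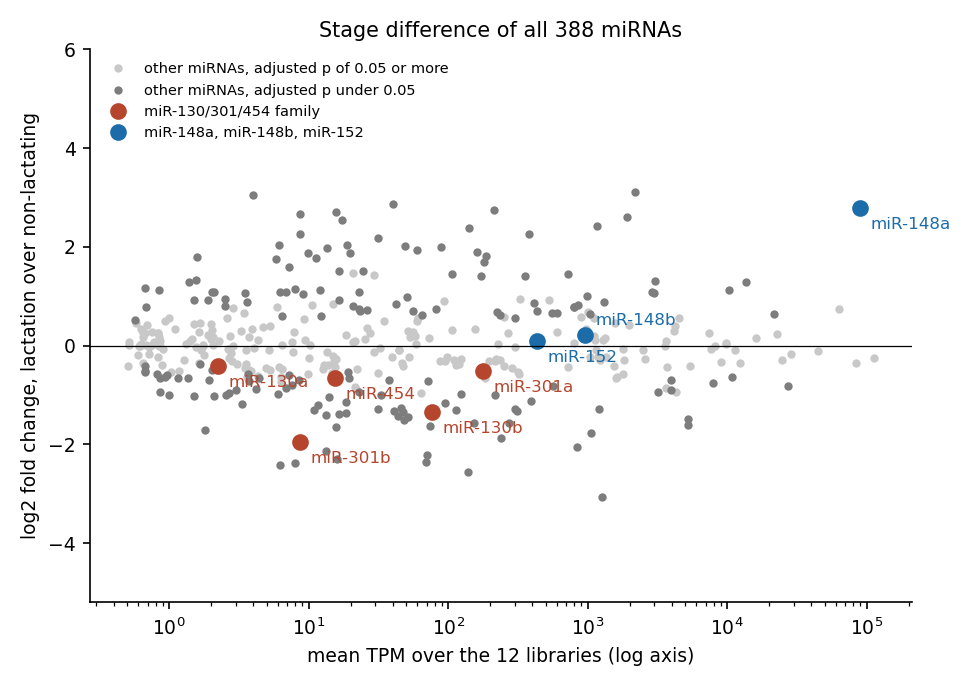
Log2 fold change, lactation over non-lactating, of each of the 388 miRNAs (vertical axis) against its mean TPM over the 12 libraries (horizontal log axis), with dark gray for miRNAs outside the family at an adjusted p under 0.05. The 5 family members, in red, all lie below 0, from -1.96 for bta-miR-301b to -0.41 for bta-miR-130a, and bta-miR-148a, in blue, lies high above it.

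The stage difference was then taken within each phenotype, with 3 libraries against 3 and the spread shared over the 4 groups. In the high protein cows (HP against HD) 3 of 5 members were called lower in lactation, beside 16.5% of the table. These were bta-miR-301b at -2.08 (adjusted p = 0.000928), bta-miR-130b at -1.47 (adjusted p = 0.0147) and bta-miR-454 at -0.91 (adjusted p = 0.0280), all limma log2 fold changes. bta-miR-301a had -0.58 (adjusted p = 0.0672) and bta-miR-130a -0.59 (adjusted p = 0.0868). In the low protein cows (LP against LD) 2 of 5 were called, beside 10.1% of the table, with bta-miR-301b at -1.84 (adjusted p = 0.00471) and bta-miR-130b at -1.22 (adjusted p = 0.0452). There, bta-miR-301a had -0.45 (adjusted p = 0.181), bta-miR-454 -0.43 (adjusted p = 0.310) and bta-miR-130a -0.23 (adjusted p = 0.548).

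bta-miR-301b was the member called within both phenotypes under every alternative that gave a value. The call of bta-miR-130b in LP against LD was lost, at adjusted p between 0.0501 and 0.151, when HP replicate 2 or 3, any LP library, HD replicate 3, or LD replicate 1 or 3 was left out. It was also lost without size factors (adjusted p = 0.159), with a pseudocount of 5 (0.0518) and with HD replicate 1 and LD replicate 1 both left out (0.115). Its call in HP against HD was lost without HD replicate 2 (adjusted p = 0.0743). The call of bta-miR-454 in HP against HD was lost without HP replicate 1 or 2 or any HD library, at adjusted p between 0.0558 and 0.0897. It was also lost without size factors (0.0802) and with HD replicate 1 and LD replicate 1 both left out (0.0560).

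The study's own question, high against low milk protein percentage within a stage, was taken with its rule for a DE (differentially expressed) miRNA, an unadjusted p under 0.05 with a log2 fold change beyond 0.8 in either direction. The test here was limma on scaled values, where the study used DESeq2 on counts, so the shares called are not those of the study. The paper lists none of the 5 members as DE in either stage. In lactation 0 of 5 members were DE between HP and LP, beside 10.1% of the table. All 5 had a higher mean in LP, with a median log2 fold change, LP over HP, of 0.42 beside -0.01 over all miRNAs. These directions rest on the sample titles. For bta-miR-152, outside the family, the direction was opposite to that in the paper, as given below. The summed stromal and smooth muscle markers taken up below also lay higher in LP, at 121956 to 157431 TPM against 66642 to 97691 in HP. Their largest member was bta-miR-143, with a mean of 98926 TPM in lactation, and the paper lists miR-143 as lower in LP. Why these directions differ from those in the paper was not tested. Of the 5 members, bta-miR-301b had the largest log2 fold change, LP over HP, at 0.58 (95% interval -0.16 to 1.31). It was followed by bta-miR-454 at 0.47 (-0.27 to 1.21) and bta-miR-301a at 0.42 (-0.17 to 1.01). bta-miR-130a stood at 0.28 (-0.34 to 0.89) and bta-miR-130b at 0.10 (-0.61 to 0.80). The intervals of all 5 include 0 and also changes past 0.8, so these libraries do not show whether the phenotypes differ. Adjusted p in limma ran from 0.472 to 0.939, and 0 members had an unadjusted p under 0.05. Without LP replicate 3, bta-miR-301b met the DE rule, at 0.81, while without LP replicate 1, its highest lactation library, it stood at 0.26 and did not.

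On normalized TPM the 3 LP libraries lay above the 3 HP libraries for 2 of 5 members, bta-miR-301a and bta-miR-301b, beside 20.6% of the table without overlap in either direction. HP was at 102 to 139 and LP at 146 to 196 normalized TPM for bta-miR-301a. For bta-miR-301b HP was at 1.66 to 2.22 and LP at 2.28 to 6.04 normalized TPM, so the nearest libraries of the groups were almost level. As deposited, the groups overlapped for both. The exact permutation test of 3 against 3 libraries cannot go below p = 0.1, the value both reached.

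In the non-lactating period 0 of 5 members were DE between HD and LD, beside 3.35% of the table. The log2 fold changes, LD over HD, were 0.34 (95% interval -0.48 to 1.17) for bta-miR-301b, 0.30 (-0.24 to 0.85) for bta-miR-301a and 0.00 (-0.68 to 0.69) for bta-miR-454. They were -0.08 (-0.67 to 0.51) for bta-miR-130a and -0.13 (-1.17 to 0.91) for bta-miR-130b, whose 3 LD libraries covered 38.66 to 232.36 TPM. Adjusted p ran from 0.993 to 0.997. bta-miR-301a was the 1 member without overlap on normalized TPM, at 166 to 198 in HD and 214 to 232 in LD, beside 9.54% of the table, and as deposited its groups overlapped. Over all 388 miRNAs limma gave 0 with an adjusted p under 0.05 between HD and LD, and 19 with an unadjusted p under 0.05.

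Whether the phenotype difference depended on stage was tested as the difference of both phenotype differences. Of the 5 members 0 passed, beside 0% of the table, with adjusted p from 0.963 to 0.993 in limma, while 20 of 388 miRNAs had an unadjusted p under 0.05. The estimates ran from 0.14 (95% interval -0.57 to 0.84) for bta-miR-301a to 0.48 (-0.37 to 1.33) for bta-miR-454. For bta-miR-301b the estimate was 0.24 (-0.81 to 1.29), so its stage difference in high and in low protein cows was not shown to differ.

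**Figure D3:**
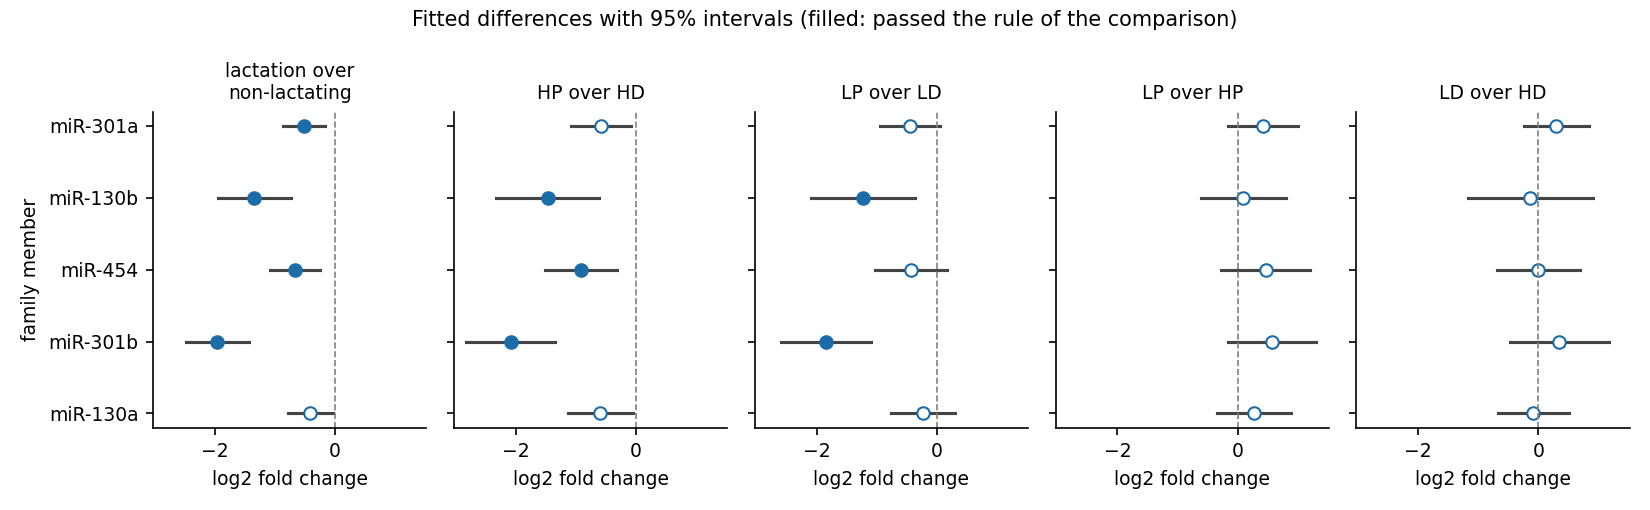
Log2 fold changes (horizontal axis) of the 5 members in 5 comparisons, with 95% intervals as bars and filled points where the member passed the rule of that comparison. Filled points appear in the 3 stage panels, 4, 3 and 2 of them, and none appear in either phenotype panel, where every interval crosses 0.

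The sum of the family and the share of each member were taken in every library. The summed TPM of the 5 members, as deposited, was 191 ± 37.2 in lactation (SD, n = 6, range 136 to 235) and 372 ± 146 in the non-lactating period (range 234 to 636). The highest sums, 636 in LD replicate 1 and 413 in HD replicate 1, are from the libraries with size factors near 1.5. Without normalization, part of the stage difference in the sum may therefore be scaling. bta-miR-301a made up 72.5 ± 4.33% of that sum in lactation against 60.2 ± 8.47% in the non-lactating period. bta-miR-130b made up 19.5 ± 4.06% and 29.6 ± 8.88%, and bta-miR-301b 1.44 ± 0.693% and 4.01 ± 1.01%. The share of bta-miR-454 was 5.70 ± 0.958% and 5.37 ± 0.789%, and that of bta-miR-130a 0.903 ± 0.274% and 0.789 ± 0.194%. Shares add to the whole, so they are given as a description with no test.

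Ratios of members within a library need no size factor. For the cluster on chromosome 17, bta-miR-301b was 4.92% to 13.6% of bta-miR-130b in lactation (median 6.58%) and 7.45% to 21.5% in the non-lactating period (median 14.4%). The stages overlapped and the mean log2 ratio, lactation minus non-lactating, differed by -0.98. For the pair within SKA2, bta-miR-454 was 5.62% to 9.31% of bta-miR-301a in lactation (median 8.45%) and 7.61% to 11.2% outside it (median 8.26%), with overlap and a log2 difference of -0.20.

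Of the 4 ratios computed, bta-miR-301b to bta-miR-301a was the one without overlap between the stages. bta-miR-301b was 1.17% to 3.94% of bta-miR-301a in lactation (median 1.91%) and 4.48% to 9.83% in the non-lactating period (median 6.47%). The log2 difference was -1.83. bta-miR-130a was 2.76% to 6.21% of bta-miR-130b in lactation (median 4.95%) and 1.38% to 6.36% outside it (median 2.63%), with overlap and a log2 difference of 0.74. These ratios were chosen after the values of the members were known, restate their stage differences and are given with no test. The mature sequences of bta-miR-301a and bta-miR-301b, and of bta-miR-130a and bta-miR-130b, are close to one another and reads were mapped to the genome with 1 mismatch allowed. How far reads of an abundant member were counted for its rarer relative was not tested, so the levels of bta-miR-301b and bta-miR-130a are uncertain to that extent.

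**Figure D4:**
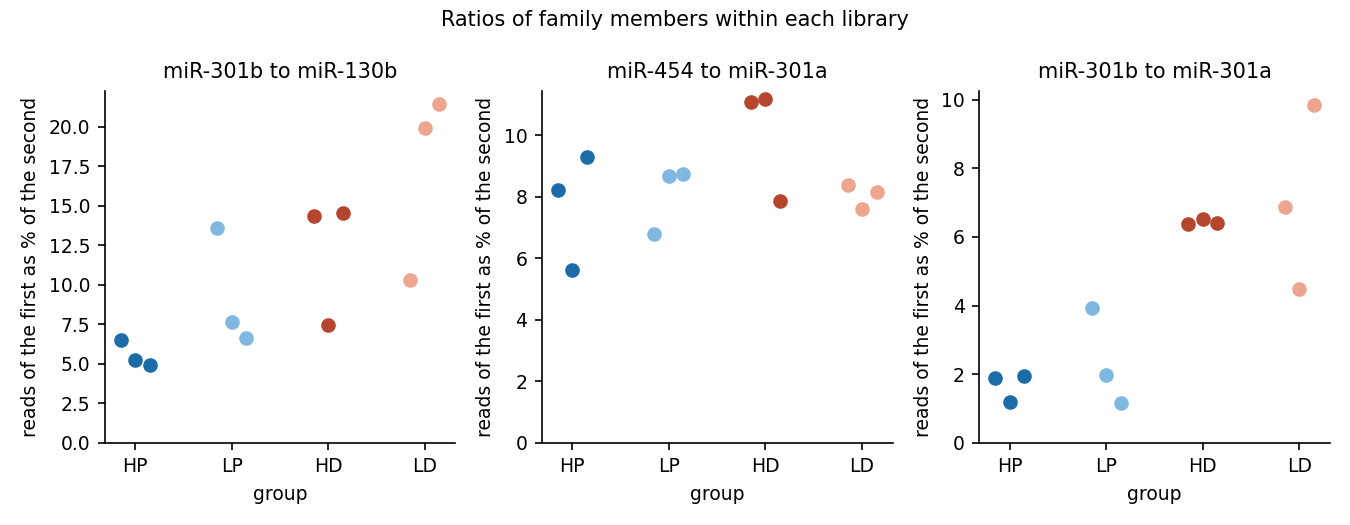
Reads of 1 family member as a percentage of the reads of another in the same library, by group, with 1 point per library and each panel on its own axis from 0. The ratio of bta-miR-301b to bta-miR-301a is 1.17% to 3.94% in HP and LP and 4.48% to 9.83% in HD and LD, while both other ratios overlap between the stages.

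miR-148a, miR-148b and miR-152 form a separate family whose seed overlaps that of the miR-130, miR-301 and miR-454 family in an offset position, and miR-148a is known as an abundant miRNA of the lactating gland and of milk. bta-miR-148a, second in mean TPM of the whole table, rose in lactation with a log2 fold change of 2.79 (SE 0.26, adjusted p = 1.06e-05). It ranged from 106978 to 191286 TPM in lactation and from 15768 to 53311 TPM outside it. bta-miR-148b had 0.21 (95% interval -0.17 to 0.59, adjusted p = 0.365) and bta-miR-152 0.09 (-0.72 to 0.89, adjusted p = 0.874) in limma. None of these 3 was lower in lactation by the rule that called 4 members of the miR-130, miR-301 and miR-454 family. Between phenotypes in lactation, bta-miR-152 was DE and higher in LP, at 489 to 582 TPM against 217 to 483 TPM in HP. Its log2 fold change, LP over HP, was 0.93 (95% interval 0.16 to 1.70). The paper lists miR-152 as DE in the opposite direction, lower in LP. It also lists it as lower in LD, where LD over HD here was 0.13 (-1.29 to 1.55). The reason for this conflict was not tested.

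The miRNAs whose log2 normalized TPM followed a member most closely were taken from the 234 miRNAs with a mean of at least 10 TPM, by Pearson r over the 12 libraries. These r values are descriptions across 2 stages that differ for many miRNAs, and the depth and size factor of a library apply to all its miRNAs. bta-miR-130b lay nearest to bta-miR-493 (r = 0.948), bta-miR-665 (0.921) and bta-miR-127 (0.890). All 3 were lower in lactation in limma, with log2 fold changes of -1.62 (adjusted p = 0.000357), -1.29 (adjusted p = 0.00623) and -1.32 (adjusted p = 0.00242). With the group means removed, the r values with bta-miR-130b were 0.797, 0.801 and 0.742. bta-miR-301a lay nearest to bta-miR-218 (0.837), bta-miR-106b (0.826) and bta-miR-708 (0.821), and within groups these r values were 0.308, 0.265 and 0.311. bta-miR-454 lay nearest to bta-miR-106b (0.910), bta-miR-382 (0.875) and bta-miR-147 (0.854), with 0.583, 0.378 and 0.463 within groups.

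bta-miR-301b and bta-miR-130a have means under 10 TPM, and their nearest miRNAs were added after the values were seen. bta-miR-301b lay nearest to bta-miR-411a (0.943), bta-miR-155 (0.924), a miRNA of activated lymphocytes and macrophages, and bta-miR-146b (0.915). Within groups these r values were 0.553, 0.439 and 0.387. bta-miR-130a lay nearest to bta-miR-331-5p (0.881), bta-miR-214 (0.810) and bta-miR-708 (0.793), with 0.748, 0.660 and 0.519 within groups.

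Some markers of the cell types in the biopsy differed between the stages as well. By the same rule, 86 of all 388 miRNAs were called higher in lactation and 86 were called lower. All 7 epithelial markers were in the table (the miR-200 family, bta-miR-205 and bta-miR-375), with a summed level of 36967 to 48291 TPM in lactation and 15311 to 39157 TPM outside it, and 6 of 7 were called higher in lactation. Both endothelial markers were called higher, at 10665 to 16528 against 4676 to 10738 TPM. Of 6 leukocyte markers 3 were called lower in lactation (bta-miR-142-5p, bta-miR-155 and bta-miR-146a), with a summed 5906 to 9183 against 8849 to 21918 TPM. Without a call, bta-miR-142-3p had a log2 fold change of -0.48, while bta-miR-150 (0.34) and bta-miR-223 (0.13) went the other way. Of 5 stromal and smooth muscle markers 2 were called lower (bta-miR-199a-3p and bta-miR-214), with a summed 66642 to 157431 against 99414 to 238300 TPM. Without a call, bta-miR-143 had a log2 fold change of -0.26, while bta-miR-145 (0.85) and bta-miR-199a-5p (0.42) went the other way. The 3 erythroid markers, at 781 to 2041 against 413 to 6127 TPM, had 0 calls. The skeletal muscle markers bta-miR-1 and bta-miR-133a, at 102 to 392 against 89.1 to 726 TPM, also had 0 calls. No marker in the table was at 0 in all libraries. The muscle list also held miR-206, which was not found by that name in the table. The part of cell type makeup in the stage difference of the family was not tested.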

How the data were processed

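Small RNA (18 to 30 nt) of 12 mammary biopsies was sequenced. The authors trimmed reads with Cutadapt 2.8 and Trimmomatic 0.36, mapped them to ARS-UCD 1.2 with Bowtie 1.1.1 with 1 mismatch, and counted miRNAs of miRBase 22.0 with the quantifier of miRDeep2. They deposited RPM values (reads scaled to 1 library total, called TPM) for 426 precursor entries over 0.5 TPM in at least 2 libraries, and tested phenotypes with DESeq2 on counts, which were not used here. Groups came from the sample titles.

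The entry with the highest mean was kept for each of the 388 mature miRNAs. In 99.3% or more of the values of each library, TPM was a whole multiple of 1 read within 0.0075 TPM. The TPM of 1 read was fitted to these same values, so this share is not an independent check of the inferred reads. All miRNAs were fitted with limma 3.58.1 (R 4.3.3, empirical Bayes with trend) on log2(TPM / size factor + 1), with 6 libraries for each phenotype comparison and 4 group means over 12 libraries for the others. Size factors were computed anew from the libraries of each fit, so a phenotype fit used factors from its 6 libraries. Normalized TPM, including in the permutation tests, used factors from all 12 libraries. Contrasts sharing groups are not independent. Benjamini-Hochberg adjustment covered all 388 miRNAs. Exact permutation tests used SciPy 1.17.1. The fit was also run on simulated data with independent noise for each miRNA and changes only in miRNAs above a minimum mean. The outcome is not given here, and the lowest miRNAs were not covered. Alternatives were other scaling, pseudocounts of 0.1 and 5, a filter at 10 TPM, all precursor entries, no trend, all 12 libraries in 1 fit, a replicate block and leaving out each library.

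Named miRNAs were the family, miR-148a, miR-148b and miR-152, miRNAs within 10 kb, and for each member the 3 with the highest r. Members and lists were chosen with earlier results of these data known. Sequences were not analysed here, so a search for other miRNAs sharing the seed was not run. Libraries are different cows.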

Additional observations from a re-analysis of the deposited data

Results flagged for a closer look

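Within a group of 6 libraries of the same stage, 1 value of the family stood apart from the others. bta-miR-301b reached 6.04 normalized TPM in LP replicate 1, the highest of the 6 lactation libraries, where the next was 2.89 in LP replicate 2. The gap was a larger part of the range than Dixon's 95% critical value for 6 libraries. The 5 members in both stages made 10 such groups, and chance alone flags about 5% of groups. The value corresponds to 65 reads inferred from the steps between values, with an exact 95% Poisson interval of 3.75 to 6.19 TPM as deposited. It lies below every non-lactating library, the lowest of which stood at 10.1 normalized TPM.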

How the results depend on the processing

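Of 564 values of single members under an alternative, 523 kept their direction and their side of the threshold, 26 lost a call, 1 gained one and 14 changed sign. The stage difference of bta-miR-301b stayed called under all 20 alternatives that gave a value (-2.30 to -1.24, adjusted p 5.73e-05 to 0.000383) and that of bta-miR-130b under all 21 (adjusted p 0.000695 to 0.0117). A mean of at least 10 TPM drops bta-miR-301b and bta-miR-130a, except in HD against LD. There the mean was taken over the non-lactating libraries alone, and bta-miR-301b was kept, at 0.38. The number of members called by stage went from 4 to 2 without size factors, and leaving out 1 library gave 3 to 4. In LP against LD the 2 calls became 1 without size factors, with a pseudocount of 5, with a mean of at least 10 TPM (3 members tested), and with both libraries of a size factor near 1.5 left out (HD replicate 1 and LD replicate 1, an alternative chosen after seeing the data). In HP against HD bta-miR-454 lost its call without size factors and without those libraries. Leaving out 1 library gave 1 to 2 calls in LP against LD, 1 to 3 in HP against HD, and 0 to 1 DE between HP and LP. The change of bta-miR-454 between HD and LD turned to -0.22 without size factors, -0.023 with trimmed-mean factors and -0.0015 over every precursor entry. Leaving out 1 library moved it between -0.086 and 0.058, bta-miR-130b between -0.48 and 0.28, and bta-miR-130a between -0.23 and 0.020. It moved bta-miR-130b in HP against LP between -0.019 and 0.28, bta-miR-130a in LP against LD between -0.36 and 0.011, and the dependence on stage between -0.10 and 0.48 for bta-miR-301b and between -0.20 and 0.60 for bta-miR-130b. The cause was not tested.

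Same-numbered libraries come from different cows. The correlation of their deviations ran from -0.39 to 0.55, and in no comparison was every pair over 0.1. HD and LD correlated at 0.548 in replicate 1 and 0.505 in replicate 3, but at -0.113 in replicate 2. HD replicate 1 and LD replicate 1 are also the libraries with size factors near 1.5. Whether same-numbered libraries share more than a number was not tested. With a replicate block, LP against LD gave 1 called member in place of 2 (bta-miR-130b, adjusted p = 0.0635), and the other counts of called members did not change.

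Without size factors the median of all miRNAs moved from 0.03 to -0.16 in HD against LD, from 0.01 to -0.15 in HP against HD, and from -0.04 to 0.11 for the dependence. In HD against LD 3 miRNAs were then DE, all lower in LD, in place of 13 (8 higher, 5 lower), in HP against HD 93 were called (59 lower) in place of 121 (64 lower), and in LP against LD 45 in place of 86. Tests on read counts by other tools were planned and not run, since whole reads could not be shown for enough low values, and the read counts given are inferred from the steps between values. Members under 10 TPM rest on few such reads in lactation.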
